A study of Saccharomyces cerevisiae with 8 samples.

Results

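RPO21 and RPB2 encode subunits of RNA polymerase II, and SPT4 and SPT5 encode an elongation factor that travels with it. RAT1, RAI1 and RTT103 encode termination factors, and SUA7 encodes the general initiation factor TFIIB. These 8 genes were taken by systematic name from the deposited gene tables. All 8 were among the 5933 genes listed, and all 8 had enough reads for every test below. Their estimated counts ran from 48.1 (SUA7) to 899 (RPB2) per library.

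RNA polymerase II that has passed a poly(A) site goes on transcribing after the RNA behind it has been cleaved. In the torpedo model of termination, a 5′ to 3′ exonuclease enters at the uncapped end left by the cut, degrades the RNA still attached to the polymerase and so helps to release the enzyme. In budding yeast the exonuclease is Rat1, its stabilising partner is Rai1, and Rtt103 binds the phosphorylated C-terminal domain (CTD) of the largest polymerase subunit. Pcf11, an essential subunit of cleavage factor IA, also binds the CTD and takes part in both cleavage and termination.

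The libraries came from budding yeast of the W303 background and were read on the Helicos platform by direct RNA sequencing (DRS). The method reads each polyadenylated RNA at its 3′ end without making cDNA, so that a read marks a poly(A) site and a count does not grow with transcript length. The labels give 2 questions for each gene, its expression and the choice of its poly(A) site, in pcf11 mutants with and without caffeine.

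All strains, wild type included, carried his3-11,15, a leu2 mutation, ade2-1, trp1-delta, ura3-1 and a chromosomal pcf11-delta::TRP1, and they lived on a pRS325-LEU2 plasmid. The pcf11-13 strain was MAT a and its plasmid held pcf11-13 with no tag in the label. The pcf11-dNL strain was MAT alpha with V5-pcf11-deltaN-linkMYC, and wild type was MAT alpha with V5-PCF11-MYC. In a comparison of pcf11-13 with either other strain, the allele, the tag and the mating type therefore cannot be told apart. Cultures grew in YPAD at 30 °C, and treated cultures were kept for 2 h more in 20 mM caffeine, so that time and density differ along with the drug. Caffeine is known in yeast as an inhibitor of the TORC1 kinase. Wild type had 2 libraries per medium, from experiments 1 and 2. Each mutant had 1 library per medium. Those of pcf11-13 belong to experiment 1 and those of pcf11-dNL to experiment 2. Nothing in the labels says that the wild-type pairs came from separate transformants or colonies. The p-values therefore measure the spread between these libraries, which may not be that of independent cultures.

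Total counts ran from 1070278 to 4555751 per library, and the treated library was the deeper of its pair except in pcf11-13. The 4 MATa marker genes summed to between 2909 and 3673 CPM (counts scaled to a library total of 1e+06) in pcf11-13 and between 111 and 229.5 CPM in the other 6 libraries. The 4 MATalpha marker genes separated the strains less well, at 267 to 430 CPM in pcf11-13 and 402 to 4875 CPM in the other 6 libraries. In edgeR 2 of these 4 were called lower in pcf11-13, and 4 were called lower with caffeine in wild type. Reads of URA3 and of 2-micron plasmid genes made up 8.36% to 11.4% of wild-type counts in experiment 1 and 0.252% to 0.463% of those in each other library. Wild type of experiments 1 and 2 thus differed in this share, and every comparison that uses wild type carries that difference. Where it comes from was not tested. Levels below are CPM after TMM scaling, which sets them relative to the other RNAs of the same library, and the values of experiment 1 precede those of experiment 2. A gene was called where its Benjamini-Hochberg adjusted p over all genes tested was below 0.05.

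Each of the 8 open reading frames is a single coding exon, and coordinates are those of the R64 (sacCer3) RefSeq annotation, stop codon included. RPO21 (YDL140C, chromosome IV, 205360 to 210561, minus strand) and RPB2 (YOR151C, chromosome XV, 612997 to 616671, minus strand) encode the largest and second largest polymerase subunits. SPT4 (YGR063C, chromosome VII, 617516 to 617824, minus strand) and SPT5 (YML010W, chromosome XIII, 247677 to 250868, plus strand) encode the Spt4-Spt5 elongation factor, which rides on the polymerase. RAT1 (YOR048C, chromosome XV, 418630 to 421650, minus strand), RAI1 (YGL246C, chromosome VII, 37617 to 38780, minus strand) and RTT103 (YDR289C, chromosome IV, 1038280 to 1039509, minus strand) encode the termination factors. SUA7 (YPR086W, chromosome XVI, 710101 to 711138, plus strand) encodes TFIIB, the general initiation factor that places the polymerase at the start site. Coding lengths run from 309 nt for SPT4 to 5202 nt for RPO21.

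Poly(A) sites of yeast are laid out by short sequence elements in the RNA: a UA-rich efficiency element, best known as UAUAUA and bound by Hrp1, and an A-rich positioning element such as AAUAAA closer to the cut. The DNA letters TATATA and AATAAA were searched on the coding strand in the 300 bases after each stop codon of the R64 genome, which is that of strain S288C and not of W303. TATATA occurs in 55.97% and AATAAA in 39.5% of 5896 such windows. The windows below are a selection of the matches, from RPO21, RPB2, SPT5 and SUA7. Each is 30 bases, 5′ to 3′ on the coding strand, with the motif in capitals.
RPO21 TATATA run, chrIV:205303-205332, minus strand: cgttattacatTATATATAgtttctcaaat
RPB2 first AATAAA, chrXV:612947-612976, minus strand: agaaagtaaaatAATAAAaaacatttcatt
RPB2 middle AATAAA, chrXV:612885-612914, minus strand: gtaggcaatagtAATAAAataagaatgaag
RPB2 last AATAAA, chrXV:612807-612836, minus strand: aaaataatgatgAATAAAatgggactcaca
SPT5 TATATA, chrXIII:251134-251163, plus strand: gtaatgtaatttTATATAacttctttttcg
SUA7 TATATA run, chrXVI:711358-711387, plus strand: atacatacaTATATATATATActgtgtata

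The RPO21 run starts 39 bases after the stop codon, and an AATAAA follows at 85. RPB2 holds AATAAA at 33, 95 and 173 bases and no TATATA. SPT5 has AATAAA at 39 and TATATA at 278, and SUA7 has a 12-base TATATA run at 229. RTT103 holds TATATA at 46 and 175 bases and RAI1 at 83, while the windows of SPT4 and RAT1 contain neither string of letters. A match here is a description of the letters and not of a site in use.

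In untreated wild type the polymerase genes and SPT4 stood highest and SUA7 lowest. RPO21 averaged 248 ± 42.2 CPM, RPB2 246 ± 30.8 and SPT4 245 ± 1.26 (SD, n = 2 each). SPT5 followed at 209 ± 25.6 CPM, RAT1 at 179.6 ± 49.1, RAI1 at 139.9 ± 32.2, RTT103 at 109 ± 29.5 and SUA7 at 57.1 ± 13.4. The ranges of RPO21, RPB2 and SPT4 overlapped, as did those of each further pair of neighbours down to RTT103 except SPT4 and SPT5, and the SUA7 range lay wholly below that of RTT103. In caffeine-treated wild type RPB2 led at 199 ± 11.5 CPM, and SPT4 stood sixth at 61.2 ± 13.0, beside RTT103 at 54.4 ± 2.35.

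**Figure D1:**
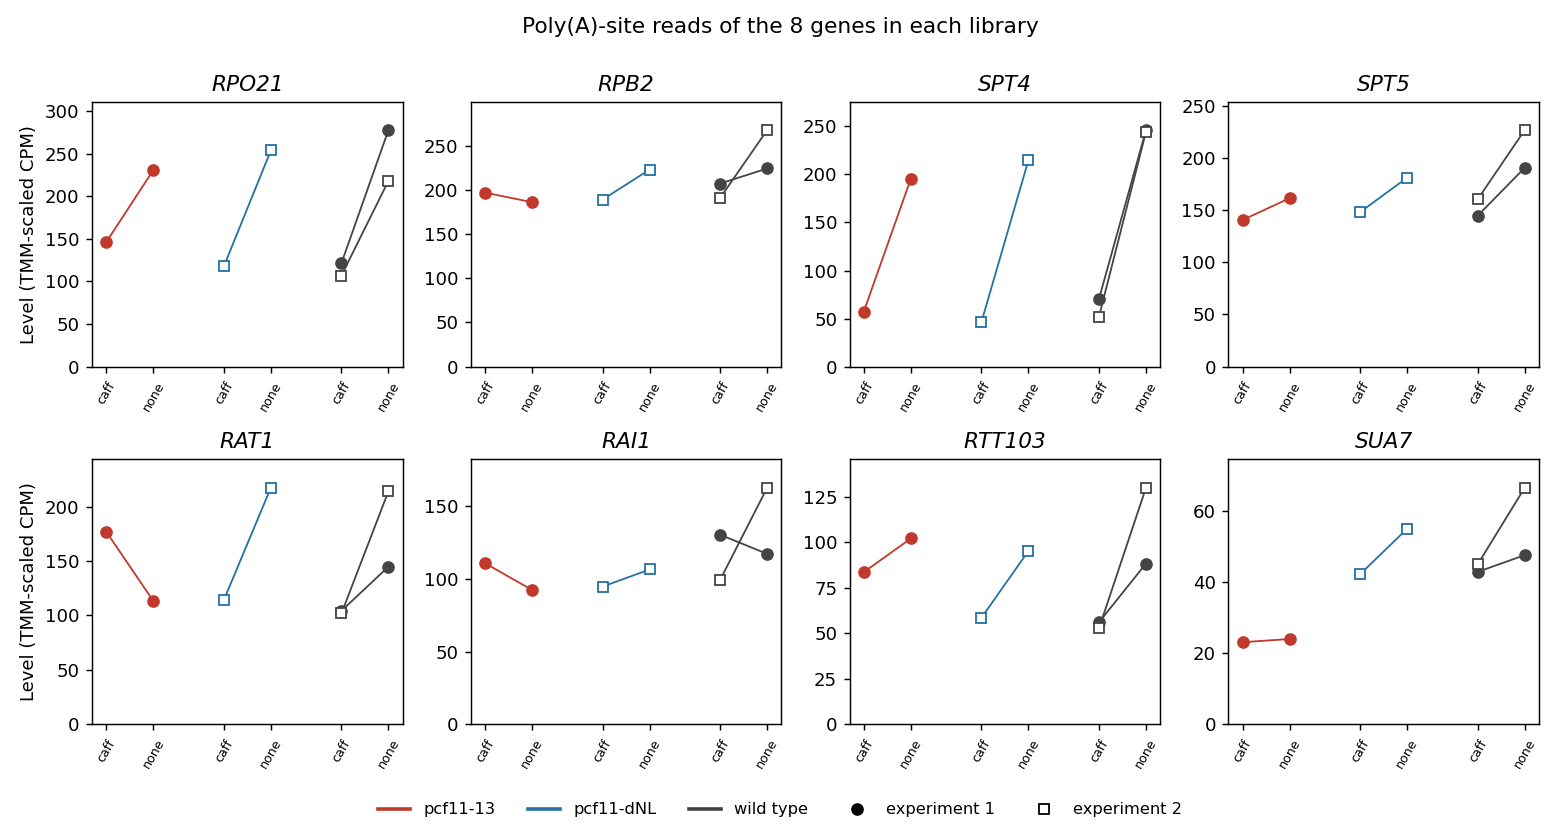
Level of each gene (TMM-scaled CPM, y axis from 0) in the 8 libraries, with caffeine (caff) left of untreated (none) in pcf11-13, pcf11-dNL and wild type; filled circles are experiment 1, open squares experiment 2, and lines join the libraries of a strain within an experiment. SPT4 and RPO21 were lower with caffeine in all 4 pairs, and SUA7 was lowest in the 2 pcf11-13 libraries.

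The first comparison asked how caffeine changed the genes in wild type. SPT4 fell most, RPO21 and RTT103 fell, RAT1 fell by less, and no member rose. All 8 estimates were below 0, as were 49.1% of those over all genes tested. RPB2 and RAI1 had the smallest changes, and differences between members were not tested. In all, 4 of 8 members were called and all 4 were lower, where 31.6% of 5849 genes were called in either direction and 14.5% were called lower. The median log2 change of the 8 was -0.63, beside 0.02 over all genes tested. In these bulk cultures, fewer cells with an RNA and less of it per cell cannot be told apart.

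The SPT4 level, for the small zinc-binding subunit of the elongation factor, was 70.4 and 52.0 CPM in caffeine-treated wild type, against 246 and 244 CPM in untreated wild type. Both treated libraries lay far below both untreated ones. On the log2 scale it changed by -2.00 ± 0.24 (SE; edgeR adjusted p = 0.00165). SPT5, for the large subunit of the same complex, had 145 and 160.4 CPM with caffeine and 191 and 227 CPM without. Its groups did not overlap either, yet its log2 change of -0.45 ± 0.23 was not called (edgeR adjusted p = 0.159).

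RPO21 had 121 and 107 CPM in treated wild type, against 278 and 218 CPM in untreated wild type, again with a clear gap between the groups. Its log2 change was -1.12 ± 0.24 (edgeR adjusted p = 0.0119), and the call was lost without the treated library of experiment 2 (-1.03, edgeR adjusted p = 0.0637). RPB2, the subunit that forms the other side of the catalytic cleft, had 207 and 191 CPM with caffeine and 224 and 268 CPM without. Both treated values lay below both untreated ones, yet the log2 change of -0.31 ± 0.24 was not called (edgeR adjusted p = 0.343).

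Among the termination factors, RTT103 had 56.0 and 52.7 CPM in treated wild type, against 88.3 and 129.998 CPM in untreated wild type. The treated values agreed closely and the untreated ones did not. The log2 change was -1.02 ± 0.25 (edgeR adjusted p = 0.0175), and with the untreated library of experiment 2 left out it was -0.70 and not called (edgeR adjusted p = 0.0902).

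RAT1, the nuclear exonuclease, had 104 and 102 CPM with caffeine and 145 and 214 CPM without. Here too the groups stood apart, with a wide spread among the untreated libraries. Its log2 change of -0.81 ± 0.25 was called (edgeR adjusted p = 0.0413). The call was lost with the experiment as a replicate block (-0.78, edgeR adjusted p = 0.0531) and in DESeq2 (-0.83, DESeq2 adjusted p = 0.0701). It was also lost without the treated library of experiment 1 (-0.82, edgeR adjusted p = 0.0996) or of experiment 2 (-0.79, edgeR adjusted p = 0.1498), and with untreated experiment 2 left out (-0.49, edgeR adjusted p = 0.184).

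RAI1, whose protein stabilises Rat1 and removes faulty 5′ ends, had 130.3 and 99.3 CPM with caffeine and 117 and 163 CPM without. Its groups overlapped, and the log2 change was -0.29 ± 0.25 (edgeR adjusted p = 0.401). SUA7 had 42.9 and 45.1 CPM with caffeine, just under the 47.6 and 66.6 CPM without, and its log2 change of -0.39 ± 0.25 was not called (edgeR adjusted p = 0.255). With untreated wild type of experiment 2 left out, 989 genes were called in place of 1849, and with its treated library left out 1207, with 2 of the 8 members in place of 4 in each case.

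The mutants allowed the same change to be read within a strain, from 1 library per medium and so without a test in that strain. SPT4 stood at 57.3 CPM with caffeine and 195 without in pcf11-13, and at 46.3 and 215 in pcf11-dNL. Its within-strain log2 differences were -1.76 and -2.20, beside -1.79 and -2.22 in the wild-type pairs of experiments 1 and 2. For RPO21 they were -0.66 in pcf11-13 and -1.10 in pcf11-dNL, beside -1.19 and -1.02 in wild type, from 146 and 231 CPM in pcf11-13 and 118 and 254 in pcf11-dNL. All 4 pairs thus had lower SPT4 and RPO21 with caffeine, with the smallest difference of either gene in pcf11-13.

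RTT103 was also lower with caffeine in both mutants. It had 83.6 CPM with caffeine and 102 without in pcf11-13, a log2 difference of -0.29, and 58.5 and 95.2 CPM in pcf11-dNL, a difference of -0.70. Over the 8 genes the median log2 difference was -0.13 in pcf11-13 and -0.54 in pcf11-dNL, beside -0.43 and -0.87 in the wild-type pairs. Over all genes the medians of the same pairs were 0.0012 in pcf11-13, 0.014 in pcf11-dNL, and 0.033 and 0.041 in wild type of experiments 1 and 2. The number of members lower with caffeine was 5 in pcf11-13, 8 in pcf11-dNL, and 7 and 8 in wild type of experiments 1 and 2. The share of all genes lower in each pair was not worked out, so these numbers are a description.

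**Figure D2:**
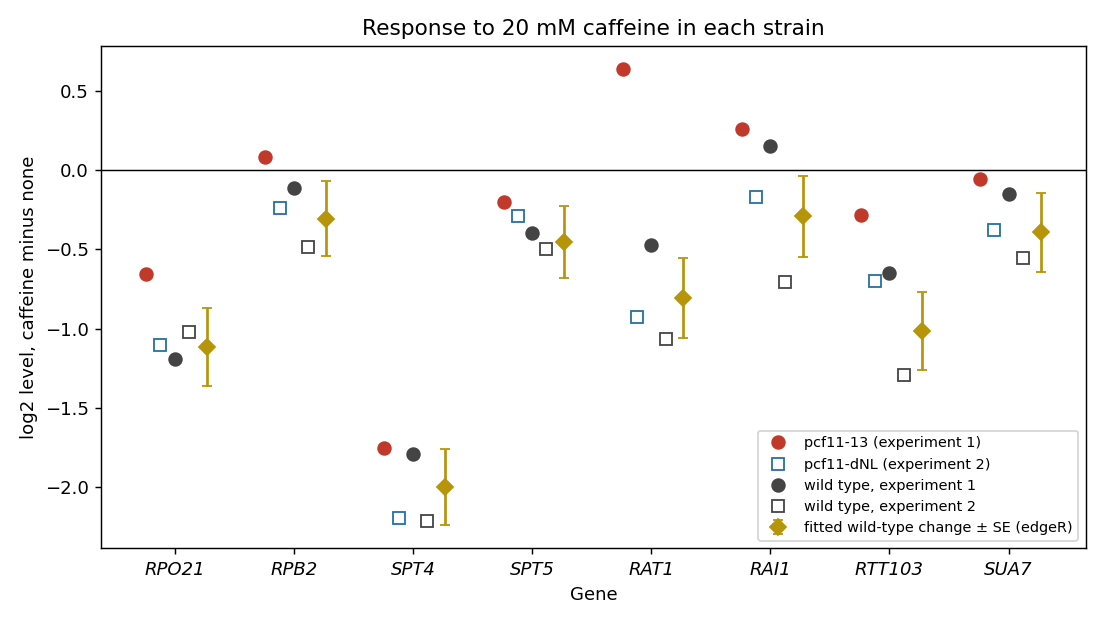
Difference in log2 level between the treated and the untreated library (y axis) for each gene (x axis): pcf11-13, pcf11-dNL, the wild-type pairs of experiments 1 and 2, and the fitted wild-type change with its standard error from edgeR. SPT4 lies between -2.22 and -1.76 in all 4 pairs, and the RAT1 point of pcf11-13 lies above 0 at 0.64.

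RAT1 was the member whose response in pcf11-13 stood farthest from wild type. It had 177 CPM with caffeine and 113 without in pcf11-13, and 114 and 217 in pcf11-dNL. Higher with caffeine in pcf11-13, it was lower in pcf11-dNL and in both wild-type pairs. The difference between the response of pcf11-13 and that of wild type was 1.45 ± 0.43 on the log2 scale, which did not pass the adjustment (unadjusted p = 0.0097, edgeR adjusted p = 0.26; 0.283 in DESeq2). No gene was called by edgeR for this difference, 0% of 5849, with 826 at an unadjusted p under 0.05 and 42 called by DESeq2. The 8 members ranged from 0.23 (SPT4) to 1.45 (RAT1). For the response of pcf11-dNL minus that of wild type, edgeR also called 0% of the genes, with 128 at an unadjusted p under 0.05 and 3 called by DESeq2. Here the members ranged from -0.21 (SPT4) to 0.31 (RTT103), all with an edgeR adjusted p of 1.0.

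The next comparison set each mutant against wild type over both media. In pcf11-13 the member called was SUA7, with lower TFIIB RNA. The fitted estimates of the other 7 genes, which average over the media, were within 0.32 of wild type on the log2 scale. Against wild type of experiment 1 alone, RAT1 differed by 0.76 with caffeine and -0.35 without, and RTT103 by 0.57 and 0.21. SUA7 had 23.1 CPM with caffeine and 24.01 without in pcf11-13, against 42.9 and 45.1 CPM in treated and 47.6 and 66.6 CPM in untreated wild type. Both pcf11-13 libraries lay below all 4 wild-type libraries and below the 42.3 and 55.1 CPM of pcf11-dNL.

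The SUA7 log2 change was -1.09 ± 0.22 in edgeR (adjusted p = 0.0416) and -1.10 in DESeq2 (adjusted p = 0.000324). Within experiment 1 alone, pcf11-13 was lower than wild type by 0.87 on the log2 scale with caffeine, and the untreated difference was -0.97. With the experiment as a replicate block it was -0.95 and not called (edgeR adjusted p = 0.168). The call was lost without any 1 of the 8 libraries: values ran from -1.26 (without treated pcf11-13) to -0.93 (without untreated pcf11-13) and edgeR adjusted p-values from 0.0577 to 0.103. That 1 of 8 members was called, and lower, stands beside 3.09% of 5849 genes called in either direction and 0.65% called lower. SUA7 counts were the smallest of the set, 51.7 and 63.6 in pcf11-13 and between 48.1 and 199.9 in wild type.

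The remaining members in pcf11-13 ranged from -0.32 ± 0.23 (RAI1, edgeR adjusted p = 0.463) to 0.27 ± 0.23 (RTT103, edgeR adjusted p = 0.536). RTT103, RAT1 and RPO21 had positive estimates and RAI1, SPT5, SPT4 and RPB2 negative ones, none of them called. In pcf11-dNL edgeR called 0 of 8 members, with 0 at an unadjusted p under 0.05, and 0% of all genes, with 163 genes at an unadjusted p under 0.05 and 0 called by DESeq2. The members ran from -0.34 ± 0.23 (RAI1) to 0.22 ± 0.33 (RAT1), and SUA7 was at -0.06 ± 0.21 (edgeR adjusted p = 1.0 for each).

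Set directly against each other, pcf11-13 and pcf11-dNL differed in SUA7 by a log2 difference of -1.03 ± 0.25, which edgeR did not call (adjusted p = 0.192) and DESeq2 did (adjusted p = 0.0116). In this contrast 0.0684% of 5849 genes were called, and 0 of 8 members. The mutants come from different experiments, and with the experiment as a block the SUA7 difference was -0.77 (edgeR adjusted p = 0.999). The other 7 members lay between -0.12 (SPT5) and 0.32 (RTT103).

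Other genes of the same machinery were read from 5 lists. Of 10 further RNA polymerase II subunit genes, caffeine lowered 6 in wild type and raised 1, with a list median of -0.81 beside 0.02 over all genes. RPB9, for a subunit that aids transcript fidelity, had 109.6 and 116 CPM in treated and 219 and 276 CPM in untreated wild type (-1.14 ± 0.23, edgeR adjusted p = 0.0096). RPO26 fell by 1.10 ± 0.28 and RPB10 by 0.91 ± 0.24, subunits shared with RNA polymerases I and III (edgeR adjusted p = 0.02 and 0.0246). RPB7, for the subunit that pairs with Rpb4 on the stalk of the polymerase, rose: it had 168 and 148 CPM with caffeine and 97.3 and 80.4 CPM without (0.84 ± 0.23, edgeR adjusted p = 0.0257). DESeq2 called 4 of the 10 genes, where edgeR called 7.

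Of 13 further elongation factor genes, 1 was called with caffeine: LEO1 of the Paf1 complex fell by 1.06 ± 0.21 (edgeR adjusted p = 0.0088). Of 18 general initiation factor genes, TFA1 of TFIIE was called and rose by 0.87 ± 0.24 (edgeR adjusted p = 0.0271), while DESeq2 called 0 of the list. Of 9 CTD kinase and phosphatase genes, edgeR and DESeq2 called 0, with 0 at an unadjusted p under 0.05, and SSU72, a CTD phosphatase of the cleavage machinery, had the smallest p (-0.41 ± 0.23, edgeR adjusted p = 0.205). Of 6 exonuclease, helicase and cleavage genes, DIS3, the catalytic exosome subunit, had 96.2 and 85.8 CPM with caffeine and 297 and 375 CPM without (-1.89 ± 0.25, edgeR adjusted p = 0.0023). DXO1, a relative of RAI1, fell by 0.93 ± 0.23 (edgeR adjusted p = 0.0199), while DESeq2 called 1 gene of this list, where edgeR called 2.

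In pcf11-13 edgeR called no gene of the 5 lists. Over all genes, 1231 of 5849 had an unadjusted p under 0.05 in edgeR for this comparison, and DESeq2 called 763 genes. An unadjusted p under 0.05 was reached by 4 of the polymerase subunit genes, 6 of the elongation, 2 of the initiation, 2 of the CTD and 0 of the exonuclease genes, and DESeq2 called 2, 3, 2, 1 and 0 of them. In pcf11-dNL edgeR and DESeq2 called none, and 1 initiation factor gene, TFB5, had an unadjusted p under 0.05. ELF1, for a small elongation factor, was nearest in pcf11-13, with 55.1 and 69.8 CPM there against 122 and 100.2 CPM in treated and 102 and 127 CPM in untreated wild type (-0.86 ± 0.20, edgeR adjusted p = 0.0528). SSU72 (-0.89 ± 0.25, edgeR adjusted p = 0.0949), TFA2 of TFIIE (0.80 ± 0.23, edgeR adjusted p = 0.1005), RPB8 (-0.64 ± 0.19, edgeR adjusted p = 0.109) and PCF11 itself (0.58 ± 0.27, edgeR adjusted p = 0.254) had the smallest p of their lists. PCF11 is carried on the plasmid in every strain, with a tag in the wild-type label and none in that of pcf11-13. Its level and the plasmid construct therefore cannot be told apart.

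Some genes outside the set ran almost parallel to a member over the 8 libraries, by Pearson's r of log2 CPM. The 5471 genes searched had mean counts of 50 or more. NAB3 (0.996) and DYN3 (0.995) were nearest to RPO21. NAB3 encodes an RNA-binding protein of the Nrd1 complex, which ends short non-coding transcripts. COX14 (0.994) and MRX14 (0.993) to SPT4, and SRP72 (0.995) and RSM7 (0.976) to SPT5. SXM1 (0.982) and RPC40 (0.979) were nearest to RPB2, and YGR210C and GYP6 (0.983 each) to SUA7. SGD1 (0.962) went with RAT1, TRM82 (0.954) and ARO7 (0.948) with RAI1, and EFG1 (0.976) and CLN2 (0.975), for a G1 cyclin, with RTT103. Within the set, RPO21 and SPT4 were the most alike (0.956) and RTT103 and SUA7 the least (0.0994). With 8 libraries that share a caffeine difference, the highest of 5471 such values lie near 1 and are given as a description.

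The second readout was where each RNA ended. The average 3′ UTR length, as the file headers name it, is read here as the mean distance of a gene's poly(A) reads past its coding region. It was similar from library to library for most members: 110.5 to 120.4 nt for SPT4, 97.0 to 118 nt for RPO21, 97.3 to 114 nt for RAT1 and 151 to 187 nt for RAI1. SUA7 ran from 226 to 265 nt, and only untreated pcf11-13 was short of its TATATA run at 229 bases. RTT103 ran from 97.8 to 158 nt. RAI1 ends only 90 nt before the end of the convergent gene BRR6, and its average length went past that gap in all 8 libraries. SUA7 went past the 264 nt to the convergent gene SRP54 in 1 library, treated pcf11-dNL. The treatment of strand by the authors is not given in the sources used here, so reads of RAI1 or SUA7 and of these neighbours may be mixed.

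**Figure D3:**
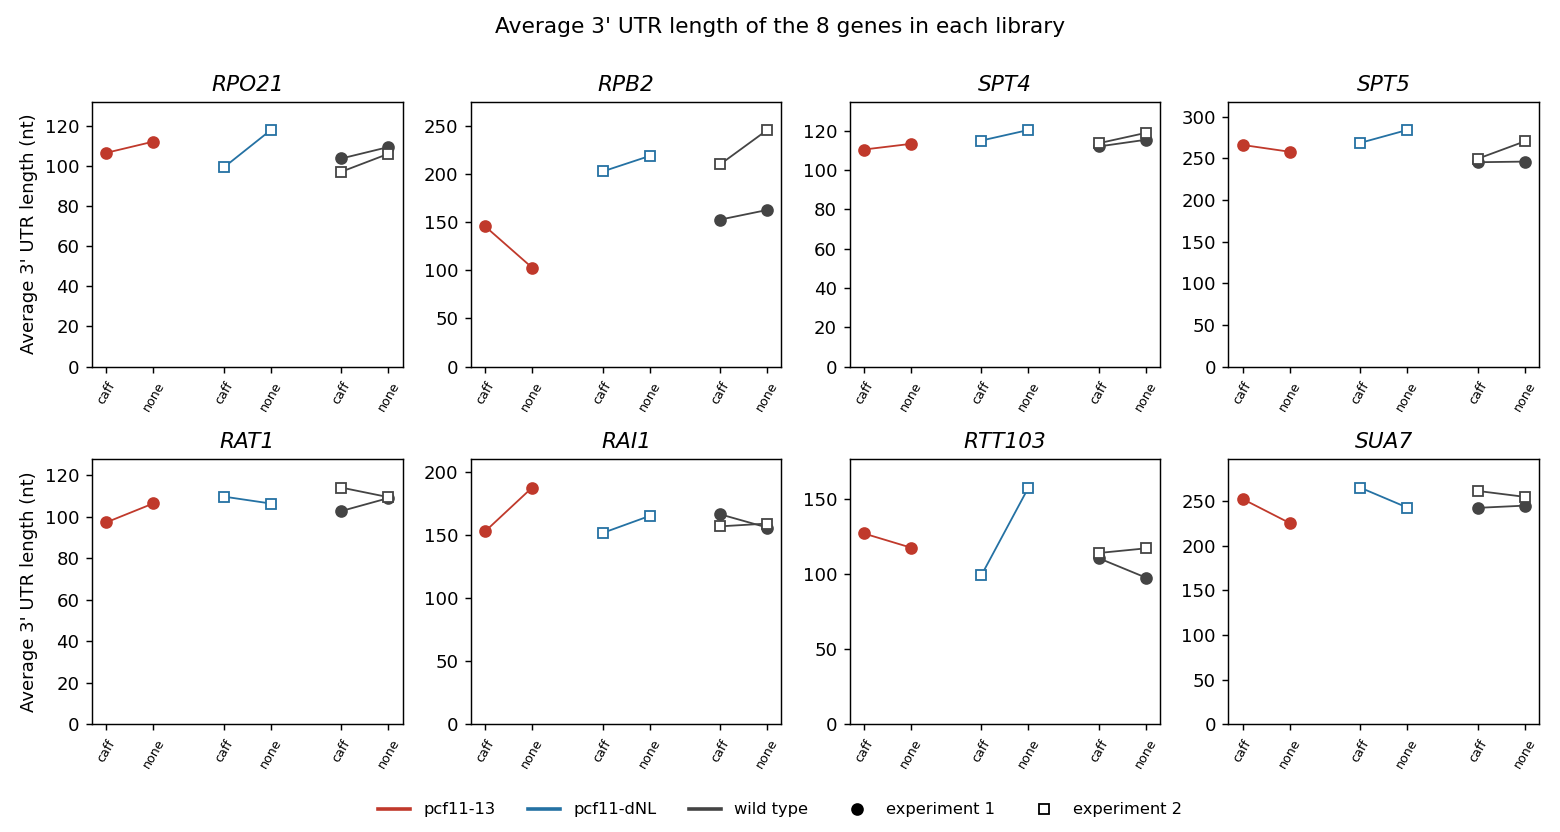
Average 3′ UTR length of each gene (nt, y axis from 0) in the 8 libraries, with caffeine (caff) left of untreated (none) in each strain; filled circles are experiment 1, open squares experiment 2, and lines join the libraries of a strain within an experiment. RPB2 is the gene whose 4 libraries of experiment 2, at 202 to 245 nt, all lie above its 4 libraries of experiment 1, at 103 to 163 nt.

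RPB2 varied most in where it ended. Its average length was 146 nt with caffeine and 103 nt without in pcf11-13, 202 and 219 nt in pcf11-dNL, and 153 and 209.9 nt in treated against 163 and 245 nt in untreated wild type. The split followed the experiment: wild type averaged 228 nt in experiment 2 and 158 nt in experiment 1, a difference of 70.1 nt. Of 5158 genes, 1.59% differed by as much between the wild-type libraries of the experiments, and the median difference over them was -0.18 nt. These averages lie on either side of the last AATAAA, at 173 bases. An average over reads is not the position of a site, and use of that element was not tested. In the test over both media the pcf11-13 effect on RPB2 was -68.4 ± 31.3 nt (limma adjusted p = 0.306), and with the experiment as a block it was -33.4 nt. The experiment and the mutant share libraries here, and the part of either in the RPB2 length was not tested further.

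SPT5 had the longest 3′ UTRs of the set by median. Its average length was 266 and 258 nt in pcf11-13, 269 and 284 nt in pcf11-dNL, and 245 and 249.6 nt in treated against 246 and 270.5 nt in untreated wild type. Both mutants were longer than wild type of the same experiment and medium. The difference was 20.7 nt with caffeine and 11.8 nt without in pcf11-13, and 19.0 and 13.6 nt in pcf11-dNL. The fitted pcf11-dNL effect of 23.5 ± 8.53 nt had an unadjusted p of 0.0396 and a limma adjusted p of 1.0. Most genes had longer fitted averages in the mutants: 34.7% of genes were shorter in pcf11-13 and 32.3% in pcf11-dNL. The medians over all genes tested were 2.61 and 2.04 nt. The SPT5 TATATA, at 278 bases, lies near the upper end of its average lengths.

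RTT103 averaged 99.4 nt in treated pcf11-dNL, against 158 nt in untreated pcf11-dNL, its longest value, while its other 6 libraries lay between 97.8 and 127 nt. No member was called for length, and SPT5 in pcf11-dNL was the 1 case with an unadjusted p under 0.05. Limma called 0.0387% of 5165 genes for caffeine in wild type, 0.678% for pcf11-13 and 0% for pcf11-dNL, with 1223, 1034 and 199 genes at an unadjusted p under 0.05. With caffeine the members ranged from -22.8 ± 40.9 nt (RPB2) to 4.91 ± 8.37 nt (RTT103) in wild type. Over all genes tested the median was -4.41 nt, and 69.0% were shorter with caffeine.

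The authors also gave a truncated share for each gene, the part of its reads that lies outside the 3′ UTR. Across genes this share rose with coding length: Spearman's rho over 5159 genes was between 0.494 and 0.591 in the 8 libraries. RPO21, the longest gene of the set, had the highest share, and the 4 shortest genes, SPT4, SUA7, RAI1 and RTT103, had at most 6.76%.

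**Figure D4:**
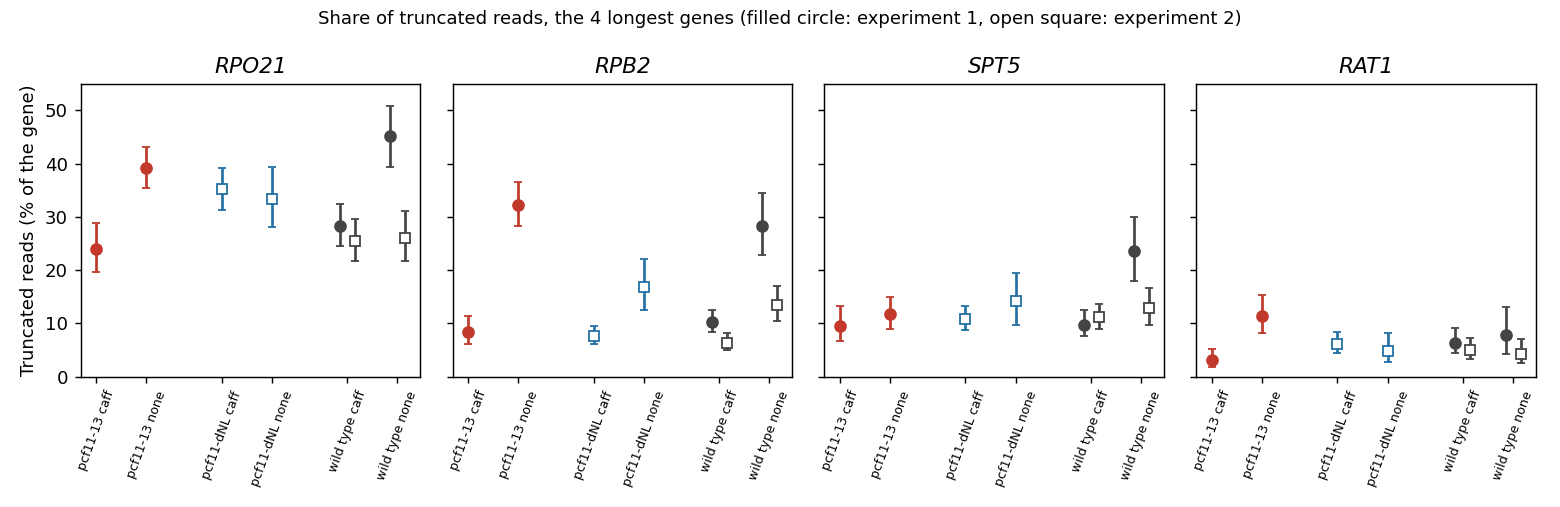
Share of truncated reads (% of the reads of the gene, y axis from 0) in the 4 longest genes for pcf11-13, pcf11-dNL and wild type, with caffeine (caff) left of untreated (none); points are libraries, filled circles are experiment 1, open squares experiment 2, and bars are Wilson 95% intervals, which cover counting error only. The RPB2 shares are lower with caffeine in all 4 pairs.

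The RPO21 share was 23.9% with caffeine and 39.2% without in pcf11-13, 35.2% and 33.4% in pcf11-dNL, and 28.3% and 25.5% in treated against 45.1% and 26.1% in untreated wild type. The share was lower with caffeine in both strains of experiment 1, and within 2 percentage points in both strains of experiment 2. More than 80% of genes had a smaller share than RPO21 in every library. The 200 genes with coding lengths above 4000 and up to 6000 nt, among them RPO21, had median shares from 21.4% (treated wild type of experiment 2) to 49.7% (untreated pcf11-13).

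RPB2 had 8.36% with caffeine and 32.2% without in pcf11-13, 7.56% and 16.9% in pcf11-dNL, and 10.2% and 6.35% in treated against 28.3% and 13.4% in untreated wild type. Each treated library was below its untreated partner. The fitted wild-type change was -0.13 ± 0.06 as a fraction (limma adjusted p = 0.405), and on class counts rebuilt from fraction and count edgeR gave an adjusted p of 0.113. SPT5 had 9.51% and 11.7% in pcf11-13, 10.7% and 14.2% in pcf11-dNL, and 9.68% and 11.1% in treated against 23.6% and 12.8% in untreated wild type. It too was lower with caffeine in all 4 pairs, by the most in wild type of experiment 1.

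RPB2, SPT5 and RAT1, with coding lengths between 3000 and 4000 nt, lay below the median of the 281 genes of that length in every library. That median was also lower with caffeine in all 4 pairs. It was 17.0% against 34.0% in pcf11-13 and 18.2% against 26.5% in pcf11-dNL. In wild type it was 17.5% and 13.8% in treated against 33.6% and 22.2% in untreated libraries. RAT1 had 3.07% and 11.4% in pcf11-13, 6.02% and 4.75% in pcf11-dNL, and 6.29% and 4.90% in treated against 7.86% and 4.29% in untreated wild type. Its pairs moved in either direction.

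No member was called on the truncated share, and 0 of 8 had an unadjusted p under 0.05 in any of the 3 comparisons. Limma called 0% of 5167 genes with caffeine in wild type, with 1021 at an unadjusted p under 0.05 and 476 called by edgeR on the rebuilt class counts. It called 0.213% in pcf11-13, and 0% in pcf11-dNL with 220 at an unadjusted p under 0.05 and 0 called by edgeR on class counts. The median share over genes was lower with caffeine in all 4 pairs: 5.35% against 8.54% in pcf11-13, 6.16% against 7.99% in pcf11-dNL, and 5.31% and 4.58% in treated against 8.73% and 6.02% in untreated wild type. With the truncated reads removed from the counts, the wild-type caffeine changes were -2.07 for SPT4, -0.98 for RPO21, -1.09 for RTT103 and -0.87 for RAT1, with edgeR adjusted p-values from 0.00218 to 0.0342. The 4 calls were thus kept. The SUA7 change in pcf11-13 was -1.10 on those counts (edgeR adjusted p = 0.0368).

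The authors' proximal fraction, a part of the truncated share whose bounds were not given in the sources used here, was at most 1.52% for any member in any library. Limma called no member on it, with 0 of 8 at an unadjusted p under 0.05 in each comparison, beside 0.0581% of 5167 genes for caffeine in wild type, 0.174% for pcf11-13 and 0% for pcf11-dNL, where 232 genes had an unadjusted p under 0.05.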

How the data were processed

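Poly(A)-site reads of 8 libraries in 6 groups were analysed from 4 tables over 5933 genes. Per the file headers, the authors deposited estimated counts per gene without normalization, of which 9.72% were whole within 1e-06. They also deposited the average 3′ UTR length in nucleotides, with 40 values listed at -1 treated as missing, and the truncated and the proximal fraction of reads. Per the submitters' processing notes, reads were placed on sacCer3. Aligner, counting rules and strand handling were not given in the sources used here. Of the gene identifiers, 5919 matched RefSeq R64, which gave coordinates and sequences.

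Counts were rounded and tested in edgeR 4.0.16 (R 4.3.3; TMM scaling, filterByExpr, quasi-likelihood test, Benjamini-Hochberg adjustment over 5849 genes, threshold 0.05). Caffeine effects in wild type and differences between responses came from 6 group means, with the residual spread set by the wild-type pairs. Mutant effects were fitted as genotype plus medium, with single mutant libraries assumed to vary like the others. A prior count of 2 entered the log2 level of a library. Lengths and fractions were tested in limma 3.58.1 where every library had 20 or more counts. A test of class counts had been intended where a file gave them, but these are deposited only as a total over libraries, so limma was kept. Class counts rebuilt by multiplying fraction and count, tested in edgeR, and a test of counts without truncated reads, were chosen after seeing the data. Alternatives included DESeq2 1.42.0, other scaling and filters, and leaving out each library. The labels give the experiment number of each library, so a fit with experiment as a replicate block was run. Over 5849 genes, the difference between experiments in treated and in untreated wild type correlated with r = 0.194.

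The 8 genes are all named. In each of 5 lists, up to 4 called genes per comparison are named by smallest p, or the gene with the smallest p where none was called. For each member the 2 genes with the highest r are named, except 1 that is not reported here. The members and the lists were chosen with earlier results of these data known. Scripts were tested on simulated data.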

Additional observations from a re-analysis of the deposited data

Results flagged for a closer look

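In 10 cases over level, length, truncated share and proximal share, a caffeine difference in 1 mutant had the opposite sign to that in both wild-type pairs. Every member was looked at in each mutant for each of these measures, and the share of such cases over all genes was not worked out. The number of cases is therefore a description and not a result about the members. RAT1 expression differed by 0.64 on the log2 scale in pcf11-13, against -0.47 and -1.07 in wild type of experiments 1 and 2, and the test of this difference had an edgeR adjusted p of 0.26. RPB2 expression differed by 0.0812 in pcf11-13, against -0.11 and -0.49 in wild type, with an edgeR adjusted p of 0.66 for the difference between the responses.

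The other 8 differences were not tested. The average 3′ UTR of RPB2 was longer with caffeine by 42.9 nt in pcf11-13, against -10.0 and -35.6 nt in wild type. For SPT5 the value was 8.18 nt in pcf11-13, against -0.755 and -20.9 nt in wild type. The truncated share of RPO21 differed by 1.83 percentage points in pcf11-dNL, against -16.8 and -0.622 points in wild type. For RAI1 the value was 2.19 points in pcf11-13, against -1.85 and -1.36 points in wild type.

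The last 4 concern the proximal share, which rests on at most 5.00 estimated reads per member and library. For RPO21 it differed by -0.258 points in pcf11-dNL, against 0.646 and 0.288 points in wild type. For SPT5 the values were -0.306 points in pcf11-13 and -0.0171 points in pcf11-dNL, against 0.261 and 0.0632 points in wild type. For RAT1 the value was 0.0921 points in pcf11-dNL, against -2.2e-05 and -4.18e-06 points in wild type.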

How the results depend on the processing

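Across alternatives other than leaving out a library, 84 of 88 values of single members kept their direction and their side of the threshold, 3 lost their call and 1 gained it. These 4 were RAT1 with caffeine under the block and DESeq2, SUA7 in pcf11-13 under the block, and SUA7 between the mutants in DESeq2. With 1 library left out, 127 of 142 values kept both, 13 lost their call, and 2 changed sign: RPO21 in pcf11-13 (-0.10 to 0.35, below 0 without treated pcf11-13) and its truncated fraction with caffeine in wild type (-0.182 to 0.00786, above 0 without untreated wild type of experiment 1). No cause was tested.

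Counts over all genes moved more. DESeq2 called 763 genes in pcf11-13 (edgeR 181), 244 between the mutants (edgeR 4), with 1 member among them, and 42 and 3 for the differences between responses. The replicate block left 30 genes in pcf11-13 with 0 members, 8 between the mutants, 8 for length in pcf11-13, and 0 each for length and the proximal fraction with caffeine and for the truncated and proximal fractions in pcf11-13. Apart from SUA7 in pcf11-13 and RAT1 with caffeine (3 members called in place of 4), it changed no call of a member. For length with caffeine (2 genes), minimums of 50 and 10 counts gave 16 and 6, and log2 lengths 0. On the arcsine scale, 18 genes were called for the truncated fraction in pcf11-13 (11 before) and 151 for the proximal fraction with caffeine (3 before). Rebuilt class counts gave 476 and 134 genes for the truncated fraction with caffeine and in pcf11-13.

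With 1 library left out, caffeine in wild type called 989 to 1855 genes and 2 to 4 members, pcf11-13 called 23 to 199 genes and 0 members, pcf11-dNL 0 to 1, the mutants against each other 0 to 61, and the differences between responses 0 to 177 (pcf11-13) and 0 to 13 (pcf11-dNL). Length gave 0 to 20 genes with caffeine, 0 to 240 in pcf11-13 and 0 to 2 in pcf11-dNL. The truncated fraction gave 0 to 3 in pcf11-13, and the proximal fraction 0 to 3, 0 to 70 and 0 to 142 in the same order. Where a group lost 1 of 2 libraries, the lone library was assumed to vary like the others. The mutants have 1 library per medium, so their own spread is unknown, and counts as low as 48.1 limit SUA7.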
